A study of Mus musculus with 15 samples.

Results

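The 10 genes described here encode ligands of the tumor necrosis factor (TNF) superfamily: *Tnf*, *Lta*, *Ltb*, *Tnfsf8*, *Tnfsf9*, *Tnfsf10*, *Tnfsf12*, *Tnfsf13b*, *Tnfsf14* and *Tnfsf15*. They were taken by symbol, as a list drawn up with earlier results of these data known, and all 10 were found among the 20089 genes of the table. RNA-seq was performed on mouse bone marrow-derived macrophages (BMDMs), which are precursors grown from wild-type marrow under macrophage colony-stimulating factor (M-CSF). The 15 samples formed 5 groups of 3, all with M-CSF: control cells given nothing more, cells given receptor activator of NF-κB ligand (RANKL) for 4 h or 72 h, and cells given lipopolysaccharide (LPS), a bacterial cell wall component, for 4 h or 72 h. The labels write the longer time as 3 days and do not say whether replicates came from separate mice, so p-values measure the spread between these samples. The labels and the methods differ in how they describe the M-CSF period of the control cells. No group is labelled as kept in M-CSF alone for a further 72 h. At that time the stimulus and the time in culture therefore cannot be told apart.

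TNF superfamily ligands are mostly trimeric type II membrane proteins, several of which are also released, and they bind receptors of the TNF receptor superfamily on neighbouring cells. Receptor engagement recruits TRAF adaptors and activates NF-κB, or, through receptors with a death domain, can trigger cell death. RANKL itself, encoded by *Tnfsf11*, belongs to the same superfamily and is required for osteoclast formation, while macrophages stimulated through the LPS receptor TLR4 are a classical source of TNF, itself a promoter of osteoclast formation.

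Levels are FPKM, that is fragments scaled to exon length in kilobases and to sequencing depth, a scale that allows for gene length. For *Tnfsf15* the values imply an exon length of 5770 bases, against 3347 for its annotated transcript. Its level beside those of other ligands is uncertain to that extent. Each sample held 18306184 to 20330207 fragments on listed genes. Differences were tested on log2(FPKM + 0.1) with limma in the 11743 genes that averaged 0.1 FPKM or more, all 10 ligands among them. A gene was called higher or lower where the fold change passed 1.5 or 0.66 with an adjusted p (Benjamini-Hochberg) under 0.05. Fold changes of genes near 0.1 FPKM are understated on this scale. Errors are SD for levels and SE for log2 fold changes, with n = 3 per group.

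The cultures carried macrophage markers throughout. The summed FPKM of 7 macrophage markers was 5357 to 17151 per sample, with none at 0. RANKL 72 h raised 9 of 10 osteoclast markers above control, against 16.6% of all genes tested. Markers of other marrow cells were present as well, and the summed FPKM of 8 neutrophil markers in control was 7566 to 23953. Summed T and NK cell markers were low, at 5.19 to 42.8 FPKM over all samples. In LPS 72 h all 8 neutrophil markers, 7 of 8 B cell markers, 5 of 6 basophil and mast cell markers and 3 of 5 dendritic cell markers were lower than in control. In RANKL 72 h the corresponding counts were 3 of 8, 6 of 8, 6 of 6 and 2 of 5, and 6 of 10 stromal cell markers were higher. LPS 72 h replicate 3 stood apart, with a summed neutrophil marker level of 1791 FPKM against 185 and 147 in the other replicates and a summed stromal marker level of 460 against 85.4 and 80.1. In such bulk samples fewer cells of a type and less RNA per cell cannot be told apart.

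Several ligand genes are neighbours in the genome. In the GENCODE M21 annotation of GRCm38, *Ltb* (chr17:35194439-35196320, plus strand), *Tnf* (chr17:35199381-35202007, minus strand) and *Lta* (chr17:35203165-35205351, minus strand) lie within the major histocompatibility complex, with 3060 bases between *Ltb* and *Tnf*, 1157 bases between *Tnf* and *Lta*, and no other gene between them. On the same chromosome *Tnfsf9* (chr17:57105325-57107757, plus strand) and *Tnfsf14* (chr17:57189492-57194177, minus strand) lie 81734 bases apart with *Cd70*, another ligand gene, between them. *Tnfsf15* (chr4:63727084-63745113, minus strand) and *Tnfsf8* (chr4:63831308-63861347, minus strand) lie 86194 bases apart. Each of the remaining genes is the only one of those described here on its chromosome. They are *Tnfsf10* at chr3:27317028-27342427 (plus strand), *Tnfsf12* at chr11:69686250-69695849 (minus strand) and *Tnfsf13b* at chr8:10006467-10039072 (plus strand). *Tnfsf12* overlaps the read-through gene *Tnfsfm13*, which is listed at 0 in all samples, and an antisense gene, *Tnfsf9* overlaps an antisense lincRNA gene, and *Tnfsf13b* an opposite-strand gene of unknown coding status. Whether counting used strand is not given in the sources used here, so values of these 3 genes are uncertain to that extent.

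The regions before the start of 4 genes are shown, those of the 3 neighbours at the *Tnf* locus, which responded differently to LPS, and that of *Tnfsf15*, whose rise with LPS was the largest of the 10. They are RefSeq sequences on GRCm38.p6, read 5′ to 3′ on the strand of the gene, at chr17:35202008-35202257 (*Tnf*, minus), chr17:35205352-35205601 (*Lta*, minus), chr17:35194257-35194438 (*Ltb*, plus) and chr4:63745114-63745309 (*Tnfsf15*, minus). Each was searched over the 250 bases before the RefSeq start, and the bases nearest the start that GENCODE places inside the gene are not shown (68 for *Ltb* and 54 for *Tnfsf15*). Capitals mark the motifs found.
Tnf: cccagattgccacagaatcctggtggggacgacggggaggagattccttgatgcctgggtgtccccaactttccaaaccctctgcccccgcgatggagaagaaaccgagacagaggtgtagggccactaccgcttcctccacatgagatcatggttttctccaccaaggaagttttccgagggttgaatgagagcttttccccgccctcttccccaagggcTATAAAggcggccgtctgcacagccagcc
Lta: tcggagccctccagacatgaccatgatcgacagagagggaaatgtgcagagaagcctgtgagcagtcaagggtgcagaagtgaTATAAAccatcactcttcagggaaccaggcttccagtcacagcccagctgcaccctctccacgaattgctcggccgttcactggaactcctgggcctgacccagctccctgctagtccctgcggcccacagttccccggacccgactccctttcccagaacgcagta
Ltb: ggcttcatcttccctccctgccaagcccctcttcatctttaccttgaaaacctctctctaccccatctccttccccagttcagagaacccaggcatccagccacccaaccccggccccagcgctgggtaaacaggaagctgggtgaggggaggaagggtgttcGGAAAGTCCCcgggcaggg
Tnfsf15: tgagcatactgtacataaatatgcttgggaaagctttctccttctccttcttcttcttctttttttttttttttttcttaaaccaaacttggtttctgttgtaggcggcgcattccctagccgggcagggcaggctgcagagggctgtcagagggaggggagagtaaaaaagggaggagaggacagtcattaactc
The motifs searched on both strands were the κB consensus bound by NF-κB, present in 7.25% of 32851 mouse promoters of this length, the AP-1 motif TGANTCA (6.75%), the core of the interferon-stimulated response element (2.98%), the TATA box TATAAA (12.4%) and the PU.1 motif GAGGAAGT (2.44%). *Tnf* held TATAAA at 29 to 24 bases before its start, and *Lta* held it at 167 to 162 bases. *Ltb* held a κB consensus match on the opposite strand at 87 to 78 bases. Among the other ligands with a sequence, *Tnfsf14* held an AP-1 match at 160 to 154 bases, and the second start of *Tnfsf13b* an AP-1 match at 127 to 121 and an interferon-response match at 16 to 7 bases. These matches did not overlap each other, and the windows of *Tnfsf8*, *Tnfsf10* and *Tnfsf15* held none of these letters. Sites further from the start, or that differ from these letters, would be missed by this search. No sequence is shown for *Tnfsf9* and *Tnfsf12*.

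The ligand mRNAs also differed in AU-rich motifs, which in the 3′ untranslated region of cytokine mRNAs are bound by proteins that shorten mRNA life. In the annotated 3′ untranslated region of the longest coding transcript, *Tnf* held 8 copies of ATTTA in 764 bases, of which 5 stretches read TTATTTATT. *Lta* held 3 copies in 572 bases with 1 such stretch, and its neighbour *Ltb* held 0 in 156 bases. The longer regions of *Tnfsf8* (2799 bases), *Tnfsf10* (3998), *Tnfsf13b* (3631) and *Tnfsf15* (2505) held 10, 8, 6 and 4 copies. *Tnfsf9* held 2, *Tnfsf12* 1 and *Tnfsf14* 1. Over 21677 genes the median was 1 copy, and TTATTTATT was present in 6.6%, so *Tnf*, *Lta* and *Tnfsf13b* were the ligands with the longer motif.

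In control BMDMs *Tnf* and *Tnfsf12* were the most abundant of the ligand mRNAs. *Tnf*, encoding the founding cytokine of the family, averaged 18.6 ± 4.28 FPKM and *Tnfsf12*, encoding TWEAK, a ligand of the injury-associated receptor Fn14, averaged 15.5 ± 2.77. Their ranges overlapped, and both lay above the next gene. *Ltb*, encoding lymphotoxin β, followed at 6.22 ± 2.93, *Tnfsf9*, encoding the 4-1BB ligand, at 4.50 ± 0.300, *Tnfsf14*, encoding LIGHT, at 3.53 ± 1.12, and *Tnfsf10*, encoding the death ligand TRAIL, at 2.86 ± 1.63, each overlapping its neighbour in this order. *Tnfsf13b*, encoding the B cell survival factor BAFF, and *Tnfsf8*, encoding the CD30 ligand, stood near 1 FPKM (1.06 ± 0.331 and 0.901 ± 0.230). *Lta*, encoding lymphotoxin α, and *Tnfsf15*, encoding TL1A, the ligand of DR3, were the lowest, at 0.284 ± 0.143 and 0.268 ± 0.141 FPKM. These levels rested on 16, 8 and 6 fragments for *Lta* and on 54, 24 and 21 for *Tnfsf15*.

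**Figure D1:**
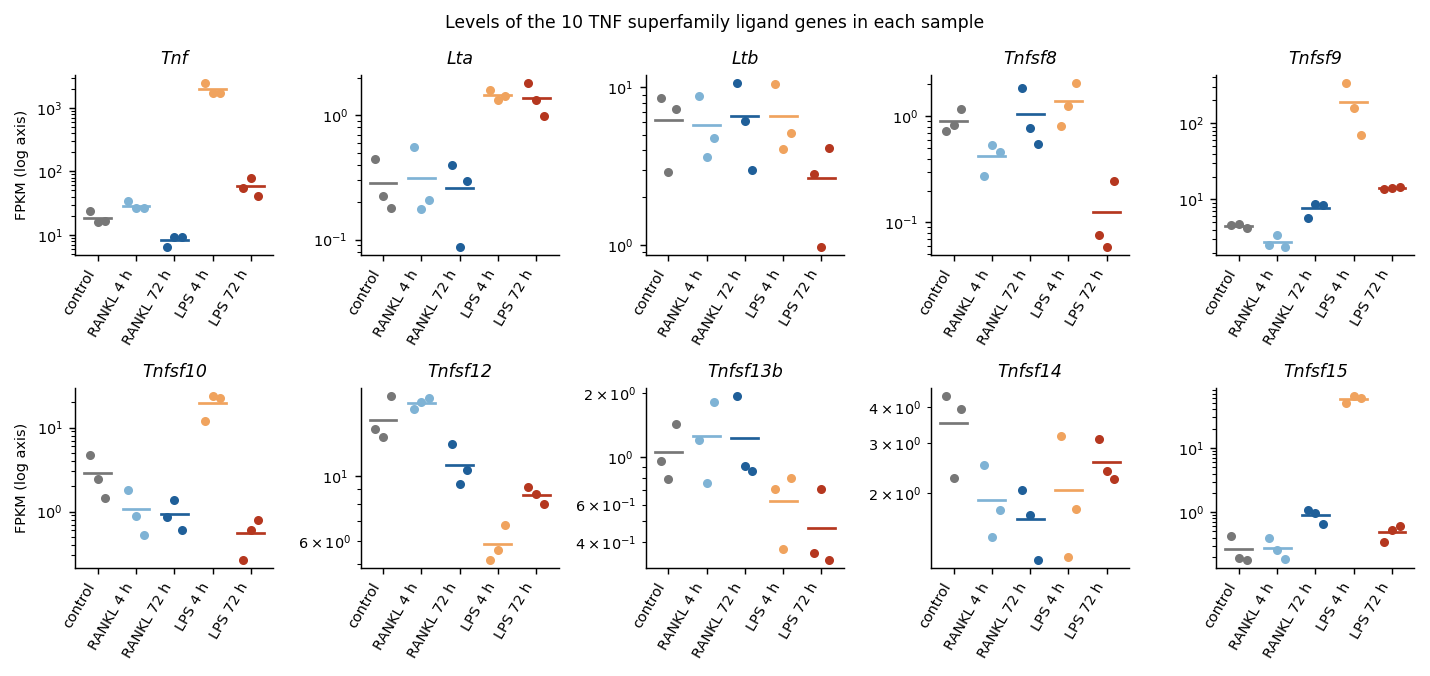
FPKM on a log axis of each of the 10 ligand genes in the 5 groups of 3 samples, with points for replicates 1, 2 and 3 from left to right and a line at the mean. *Tnf*, *Tnfsf9* and *Tnfsf15* stand far above all other groups in LPS 4 h, while the points of *Ltb* overlap between control and each stimulated group.

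LPS for 4 h raised 5 of the 10 ligands and lowered 1. *Tnf*, *Tnfsf15*, *Tnfsf9*, *Tnfsf10* and *Lta* were higher than in control, against 8.43% of all genes tested, and *Tnfsf12* was lower, against 39.7%. The rises took *Tnf* to rank 30 among 11743 genes by mean FPKM, from rank 3134 in control. By size of the log2 fold change, *Tnfsf15* ranked 8, *Tnf* 14 and *Tnfsf9* 36. The median of all genes tested was -0.52 on the log2 scale in this comparison, and the median of the 10 ligands was 1.29. When every sample was centred on its own median gene, the calls over all genes went from 990 higher and 4660 lower to 1871 higher and 1529 lower, and the ligands stayed at 5 higher and 1 lower.

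*Tnf* stood at 23.5, 15.8 and 16.5 FPKM in control replicates 1, 2 and 3. After LPS 4 h it stood at 2495, 1698 and 1716 FPKM. The groups were far apart, with a mean 106 times that of control (log2 fold change 6.72 ± 0.24, limma adjusted p = 4.44e-10). *Tnfsf15* stood at 0.431, 0.193 and 0.180 FPKM in control and at 50.7, 64.8 and 60.2 FPKM after LPS 4 h. It went from among the weakest of the ligands to the third in order, a log2 fold change of 7.37 ± 0.30 (limma adjusted p = 1.24e-09). *Tnfsf9*, whose product costimulates T cells, stood at 4.63, 4.70 and 4.15 FPKM in control and at 341, 158 and 70.1 FPKM after LPS 4 h. All 3 stimulated values lay far above control, but they ranged widely among themselves, and the log2 fold change of 5.08 ± 0.39 (limma adjusted p = 2.64e-07) was 4.52 without LPS 4 h replicate 1 and 5.66 without replicate 3.

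*Tnfsf10* rose less, from 4.65, 2.47 and 1.47 FPKM in control to 11.9, 23.7 and 22.6 FPKM. The lowest stimulated value was above the highest control value, and the log2 fold change was 2.80 ± 0.49 (limma adjusted p = 2.87e-04). *Lta*, the gene next to *Tnf*, rose from 0.447, 0.225 and 0.180 FPKM to 1.61, 1.34 and 1.44 FPKM, on 48 to 55 fragments per LPS 4 h sample. Its log2 fold change was 2.08 ± 0.41 (limma adjusted p = 6.42e-04). *Ltb*, the other neighbour of *Tnf*, stood at 8.50, 2.91 and 7.26 FPKM in control and at 10.6, 4.04 and 5.16 FPKM after LPS 4 h. The groups overlapped, and the log2 fold change of 0.09 had a 95% interval of -1.17 to 1.36.

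*Tnfsf12* was the ligand that fell, from 14.4, 13.5 and 18.7 FPKM in control to 5.18, 5.58 and 6.82 FPKM after LPS 4 h. The groups did not overlap, and the log2 fold change was -1.39 ± 0.15 (limma adjusted p = 6.36e-06), or -0.82 with samples centred on their median gene, still called. *Tnfsf14* stood at 4.38, 2.26 and 3.96 FPKM in control and at 3.18, 1.20 and 1.76 FPKM after LPS 4 h. These ranges overlapped, and the log2 fold change of -0.81 ± 0.35 was not called (limma adjusted p = 0.0565). It was called with the replicate number as a block (adjusted p = 0.00958), and also without control replicate 2 (log2 fold change -1.10) or without LPS 4 h replicate 1 (-1.17). *Tnfsf8* and *Tnfsf13b* were not called either, at log2 fold changes of 0.50 and -0.69.

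**Figure D2:**
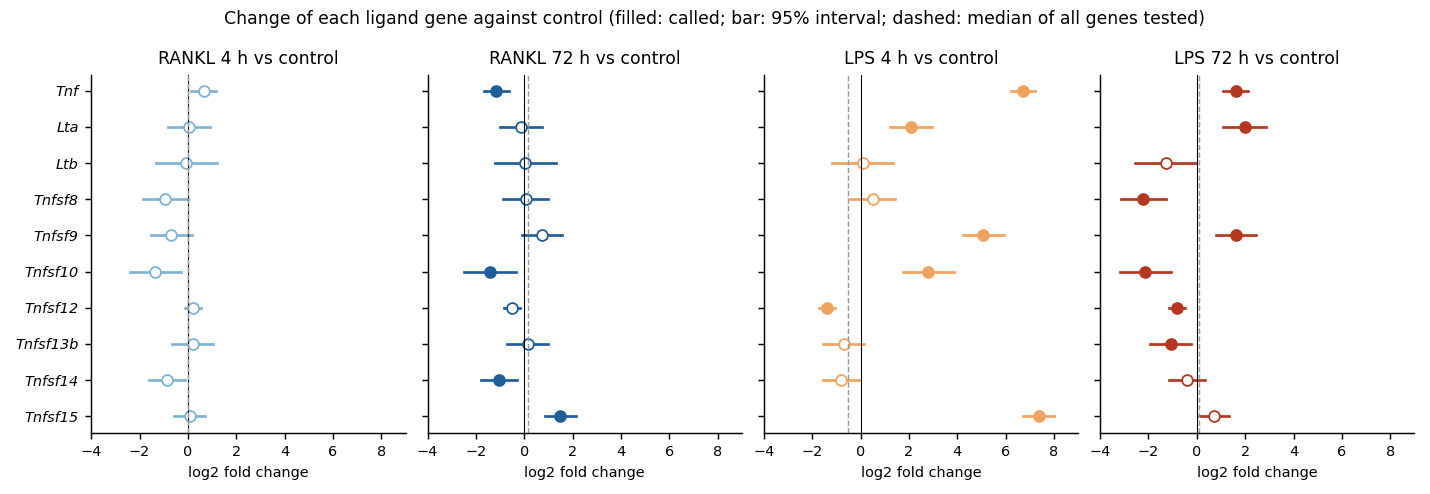
Log2 fold change of each ligand gene against control (horizontal axis) in the 4 stimulated groups, with 95% intervals from limma, filled points for called genes and a dashed line at the median of all genes tested. The LPS 4 h panel holds changes of 6.72 for *Tnf* and 7.37 for *Tnfsf15*, and no point is filled for RANKL 4 h.

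At LPS 72 h the ligands had split. *Tnf*, *Lta* and *Tnfsf9* were still higher than in control, against 13% of all genes tested, and *Tnfsf8*, *Tnfsf10*, *Tnfsf12* and *Tnfsf13b* were lower, against 14.4%. *Tnf* stood at 55.0, 78.2 and 41.1 FPKM, all above control, with a log2 fold change of 1.61 ± 0.24 (limma adjusted p = 2.13e-04). *Tnfsf9* held 13.6, 14.0 and 14.4 FPKM, nearly the same in every replicate, at a log2 fold change of 1.62 ± 0.39 (limma adjusted p = 0.00587). *Lta* kept its early level, with 1.83, 1.34 and 0.991 FPKM and a log2 fold change of 1.98 ± 0.41 (limma adjusted p = 0.00224).

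Of the ligands below control at LPS 72 h, *Tnfsf8* was the lowest, at 0.0765, 0.0593 and 0.245 FPKM on 4, 3 and 12 fragments, against 0.720, 0.821 and 1.16 FPKM in control. The groups did not overlap, and its log2 fold change was -2.21 ± 0.43 (limma adjusted p = 0.00162). *Tnfsf10*, which had risen at 4 h, stood at 0.266, 0.599 and 0.800 FPKM, below every control value, with a log2 fold change of -2.12 ± 0.49 (limma adjusted p = 0.00464). *Tnfsf12* stood at 9.15, 8.68 and 8.04 FPKM and was again below control in every sample, with a log2 fold change of -0.83 ± 0.15 (limma adjusted p = 0.00107). *Tnfsf13b* went from 0.962, 0.793 and 1.43 FPKM to 0.353, 0.707 and 0.329 FPKM. Its groups did not overlap, but its call was marginal (log2 fold change -1.07 ± 0.40, limma adjusted p = 0.0485) and was lost without any of control replicates 1, 2 or 3 (log2 fold changes -1.12, -1.24 and -0.85) and without LPS 72 h replicate 1 (-0.94) or 3 (-0.91).

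The markers of neutrophils, B cells, basophils and dendritic cells fell in the same samples as *Tnfsf8*, *Tnfsf10* and *Tnfsf13b*, and their part in these results was not tested. The summed B cell markers were 18.4 to 23.7 FPKM in control and 0.994 to 2.78 in LPS 72 h. The summed neutrophil markers were 147 to 1791 FPKM in LPS 72 h. Without LPS 72 h replicate 3, the sample that stood apart, 7 ligands were again called, with *Ltb* called lower (log2 fold change -1.70) in place of *Tnfsf13b*.

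*Tnfsf15*, which had risen most at LPS 4 h, stood at 0.338, 0.525 and 0.601 FPKM at LPS 72 h. These values overlapped control, and the log2 fold change of 0.71 ± 0.30 was not called (limma adjusted p = 0.0753), although it was without control replicate 1 (1.01, adjusted p = 0.0194). *Ltb* stood at 2.83, 0.975 and 4.12 FPKM, with a log2 fold change of -1.28 ± 0.59 that was not called (limma adjusted p = 0.105). *Tnfsf14* stood at 3.09, 2.39 and 2.25 FPKM, a log2 fold change of -0.40 with a 95% interval of -1.14 to 0.34.

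The change between 4 h and 72 h of LPS was tested directly, and 5 ligands were lower at 72 h, against 13.9% of all genes tested, and 0 were higher, against 44.2%. *Tnfsf15* fell by 6.66, *Tnf* by 5.11, *Tnfsf10* by 4.93, *Tnfsf9* by 3.46 and *Tnfsf8* by 2.70 on the log2 scale (limma adjusted p from 5.84e-09 for *Tnfsf15* to 9.55e-05 for *Tnfsf8*). The values of each of the 5 did not overlap between the times. In the same comparison 8 of 8 neutrophil, 7 of 8 B cell, 5 of 6 basophil and mast cell and 3 of 5 dendritic cell markers were lower, and their part in the lower ligands was not tested. *Lta* differed from them, since its log2 difference between the times was -0.11 with a 95% interval of -0.98 to 0.77. *Tnfsf12* was higher at 72 h than at 4 h in every sample, but its log2 difference of 0.56 ± 0.15 was under the fold required (limma adjusted p = 0.00541) and was -0.09 with samples centred on their median gene. It was called without LPS 4 h replicate 3 (0.67) or LPS 72 h replicate 3 (0.61). *Ltb* was not called at -1.38 ± 0.59 (limma adjusted p = 0.0518), and was called without LPS 72 h replicate 3 (-1.79) or without LPS 4 h replicate 2 (-1.66). Over all genes 5186 were higher and 1631 lower at 72 h, or 2209 and 3224 with median centring, under which 7 ligands were lower.

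RANKL for 4 h gave no called ligand, and the share over all genes was also low, at 0.119%. At the same fold thresholds with an unadjusted p under 0.05, 4 ligands passed (*Tnf*, *Tnfsf8*, *Tnfsf10* and *Tnfsf14*), against 2.56% of all genes. With adjusted p, limma voom on recovered fragments called 0. *Tnf* stood at 33.8, 26.4 and 26.6 FPKM, each above the highest control value of 23.5. Its log2 fold change was 0.65 with a 95% interval of 0.13 to 1.16 (limma adjusted p = 0.724). *Tnfsf8* stood at 0.276, 0.535 and 0.462 FPKM and *Tnfsf9* at 2.50, 3.46 and 2.40 FPKM, in both cases below all control values and at log2 fold changes of -0.94 and -0.69. *Tnfsf10* had the lowest log2 fold change of the 10, -1.35 with a 95% interval of -2.41 to -0.29. Its ranges overlapped, but it was lower in RANKL 4 h than in the control of the same number in 3 of 3 pairs, at 1.78 against 4.65, 0.896 against 2.47 and 0.519 against 1.47 FPKM. *Tnfsf14* was also lower in 3 of 3 pairs, at 2.52 against 4.38, 1.41 against 2.26 and 1.74 against 3.96 FPKM. With the replicate number as a block neither was called (limma adjusted p = 0.537 and 0.292). That block was shared by all 5 groups, and no fit paired within control and RANKL 4 h alone was run. Groups that did not overlap were found for 3 of 10 ligands, against 10.8% of all genes.

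After RANKL 72 h, when osteoclast markers had risen, 1 ligand was higher and 3 were lower than in control. *Tnfsf15* was higher, against 16.6% of all genes tested, and *Tnf*, *Tnfsf10* and *Tnfsf14* were lower, against 7.54%. *Tnfsf15* stood at 1.10, 0.970 and 0.654 FPKM, above every control value, with a log2 fold change of 1.49 ± 0.30 (limma adjusted p = 0.00228). *Tnf* stood at 6.53, 9.08 and 9.26 FPKM, below every control value, with a log2 fold change of -1.15 ± 0.24 (limma adjusted p = 0.00299). *Tnf* and *Tnfsf15* were the ligands called in RANKL 72 h whose calls held without any single replicate of the 2 groups.

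*Tnfsf10* stood at 0.858, 1.38 and 0.601 FPKM in RANKL 72 h, just below the lowest control value of 1.47. Its log2 fold change was -1.42 ± 0.49 (limma adjusted p = 0.0426), and the call was lost without control replicate 1 (-1.01) or 2 (-1.45) and without RANKL 72 h replicate 1 (-1.39) or 3 (-1.17). *Tnfsf14*, a ligand shared by the lymphotoxin β receptor and HVEM, stood at 2.05, 1.67 and 1.17 FPKM against 4.38, 2.26 and 3.96 in control. Its groups did not overlap, and its log2 fold change was -1.05 ± 0.35 (limma adjusted p = 0.034), a call lost without control replicate 1 (-0.87) or 3 (-0.95) and without RANKL 72 h replicate 2 (-1.08) or 3 (-0.84). Summed neutrophil markers were also lower here, at 1848 to 7448 FPKM, and their part in the lower *Tnfsf10* and *Tnfsf14* was not tested.

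*Tnfsf12* stood at 12.9, 9.35 and 10.5 FPKM in RANKL 72 h, below all control values. Its log2 fold change of -0.50 ± 0.15 was under the fold required (limma adjusted p = 0.0239), but was called without RANKL 72 h replicate 1 (-0.63) and with median centring (-0.72). *Tnfsf9* stood at 5.74, 8.79 and 8.56 FPKM, above all control values, at a log2 fold change of 0.74 with a 95% interval of -0.10 to 1.58 (limma adjusted p = 0.164). *Tnfsf13b*, *Tnfsf8*, *Ltb* and *Lta* overlapped control, with log2 fold changes of 0.15, 0.06, 0.04 and -0.14. The first 3 of these had the opposite sign with median centring (-0.07, -0.16 and -0.18), under which the calls over all genes went from 1951 higher and 886 lower to 1167 and 1428.

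Between RANKL 4 h and RANKL 72 h, *Tnfsf9* and *Tnfsf15* were higher at the later time, against 16.4% of all genes tested, and *Tnf* and *Tnfsf12* were lower, against 6.83%. *Tnf* fell by 1.80 ± 0.24 on the log2 scale (limma adjusted p = 1.45e-04), from 26.4 FPKM or more to 9.26 or less. *Tnfsf15* rose by 1.42 ± 0.30 (limma adjusted p = 0.0032). *Tnfsf9* rose by 1.43 ± 0.39 (limma adjusted p = 0.0151), a call lost without RANKL 4 h replicate 1 (1.36) and without RANKL 72 h replicate 2 (1.32) or 3 (1.34). *Tnfsf12* fell by 0.70 ± 0.15 (limma adjusted p = 0.00426). The *Tnfsf12* call was lost with samples scaled to equal sums (-0.58), that of *Tnfsf15* with a pseudocount of 1 (0.57), and that of *Tnfsf9* with no filter on low values (adjusted p = 0.0503) or with voom on fragments (adjusted p = 0.112). With median centring, the calls over all genes went from 1930 higher and 802 lower to 1141 and 1351.

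RANKL and LPS were also compared at the same time. At 4 h, *Tnfsf12* was higher under RANKL, against 41% of all genes tested, and *Tnf*, *Lta*, *Tnfsf8*, *Tnfsf9*, *Tnfsf10* and *Tnfsf15* were lower, against 8.98%. The log2 differences, RANKL minus LPS, were -7.30 for *Tnfsf15*, -6.07 for *Tnf*, -5.77 for *Tnfsf9*, -4.15 for *Tnfsf10* and -2.04 for *Lta*. *Tnfsf8*, not called against control at 4 h under either stimulus, stood at 0.276 to 0.535 FPKM under RANKL and 0.814 to 2.07 under LPS. Its log2 difference of -1.44 ± 0.43 (limma adjusted p = 0.0109) lost its call without LPS 4 h replicate 3 (-1.12). *Tnfsf13b* was not called (0.88, limma adjusted p = 0.0664), and was without RANKL 4 h replicate 2 (1.18). With median centring, the calls over all genes went from 4818 higher and 1054 lower to 1580 and 1905, and those of the ligands stayed at 1 and 6.

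At 72 h, *Tnfsf8*, *Tnfsf13b* and *Tnfsf15* were higher under RANKL than under LPS, against 23.3% of all genes tested, and *Tnf* and *Lta* were lower, against 12.8%. *Tnf* differed most among the lower ones, by -2.76 ± 0.24 on the log2 scale (limma adjusted p = 1.28e-06), and *Lta* by -2.12 ± 0.41 (limma adjusted p = 8.58e-04). *Tnfsf8* stood at 1.83, 0.774 and 0.544 FPKM under RANKL against at most 0.245 under LPS, a log2 difference of 2.27 ± 0.43 (limma adjusted p = 8.19e-04). *Tnfsf13b* stood at 1.94, 0.916 and 0.861 FPKM under RANKL, all above the LPS values, a log2 difference of 1.22 ± 0.40 (limma adjusted p = 0.0215). That call was lost without RANKL 72 h replicate 1 (0.87) and without LPS 72 h replicate 1 (1.10) or 3 (1.06). *Tnfsf15* differed by 0.78 ± 0.30 (limma adjusted p = 0.0453), a call lost without RANKL 72 h replicate 1 (0.64) or 2 (0.72) and without LPS 72 h replicate 1 (0.58) or 2 (0.83). *Ltb* was not called (1.32 ± 0.59, limma adjusted p = 0.0817), and was called without RANKL 72 h replicate 3 (1.79) or without LPS 72 h replicate 3 (1.74). Over all genes 2739 were higher and 1506 lower, or 2237 and 2045 with median centring, under which *Tnfsf15* was not called. Markers of other cells differed here as well, with 7 of 8 neutrophil markers (median log2 difference 4.47), 3 of 10 T and NK cell markers (0.98) and 4 of 10 stromal markers (1.36) higher under RANKL. Their part in the higher *Tnfsf8*, *Tnfsf13b* and *Tnfsf15* was not tested.

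The make-up of the summed ligand mRNA changed with these responses. The 10 genes summed to 53.8 ± 9.54 FPKM in control, 60.4 ± 7.25 in RANKL 4 h, 39.5 ± 4.29 in RANKL 72 h, 2255 ± 577 in LPS 4 h and 89.0 ± 17.4 in LPS 72 h. *Tnf* made up 30.0 to 37.6% of the sum in control and 85.4 to 90.9% in LPS 4 h. In RANKL 72 h its share was 14.8 to 26.1%, and *Tnfsf12* led the order with 10.9 ± 1.79 FPKM, above *Tnf* in every replicate. *Tnf*, *Tnfsf9* and *Ltb* followed it at 8.29 ± 1.53, 7.70 ± 1.70 and 6.59 ± 3.88 FPKM with overlapping ranges. In LPS 72 h *Tnf* again led, followed by *Tnfsf9*, *Tnfsf12* and *Ltb*, and among the first 6 *Ltb* and *Tnfsf14* were the neighbours in this order whose ranges overlapped.

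**Figure D3:**
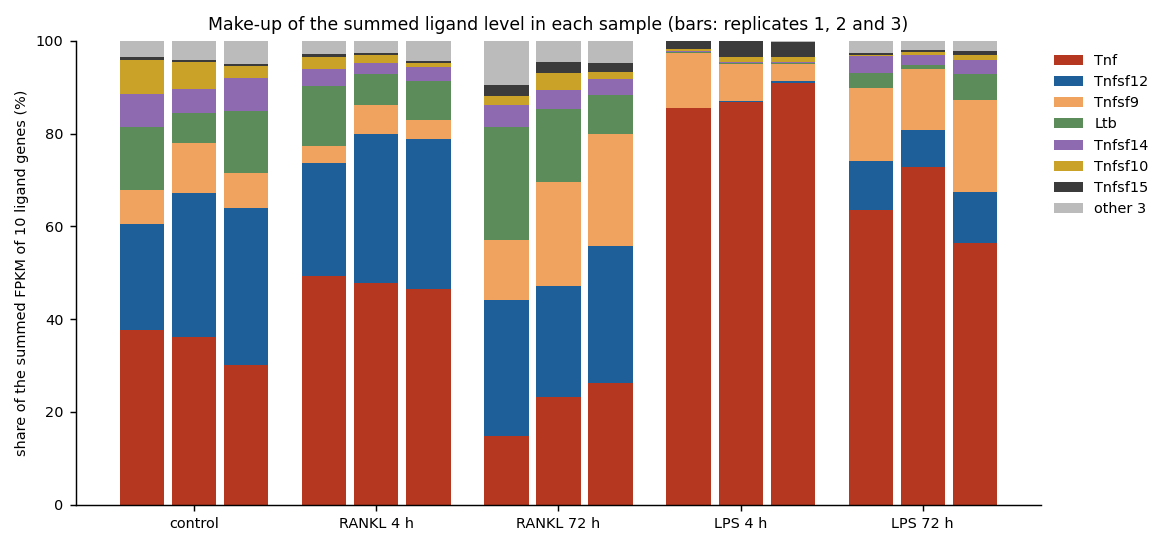
Share of the summed FPKM of the 10 ligand genes (vertical axis, percent) taken by each gene in each of the 15 samples, with bars for replicates 1, 2 and 3 of each group and *Lta*, *Tnfsf8* and *Tnfsf13b* combined as the other 3. *Tnf* takes 85.4 to 90.9% in LPS 4 h and 14.8 to 26.1% in RANKL 72 h.

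*Ltb* varied more between replicates than between groups. Replicate 1 was the highest in every group but LPS 72 h (8.50, 8.81, 10.7 and 10.6 FPKM in control, both RANKL groups and LPS 4 h), and replicate 2 was the lowest in control, RANKL 4 h and LPS 4 h (2.91, 3.60 and 4.04). The summed neutrophil markers ranked the 3 replicates in the same order as *Ltb* in all 5 groups, with 23953, 21426, 7448 and 21032 FPKM in replicate 1 of those 4 groups. Replicate 2 of control, RANKL 4 h and LPS 4 h held 7566, 7168 and 6416 FPKM of these markers. In LPS 72 h both were highest in replicate 3, at 4.12 FPKM for *Ltb* and 1791 FPKM for the markers. In RANKL 72 h the summed markers were lower than in control replicate by replicate, and 3 of 8 were called lower. *Ltb* was not called there, at 6.59 ± 3.88 against 6.22 ± 2.93 FPKM. Among these markers *Ly6g* differed from the sum, at 10.2, 3.85 and 2.43 FPKM in RANKL 72 h against 7.01, 0.802 and 11.2 in control. Summed T and NK cell markers ranked the replicates as *Ltb* did in RANKL 72 h (42.8, 41.0 and 17.8 FPKM). They also did so in LPS 72 h (6.07, 5.19 and 13.3 FPKM), but not in control, RANKL 4 h or LPS 4 h. The part of neutrophils or of T and NK cells in the *Ltb* values was not tested.

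**Figure D4:**
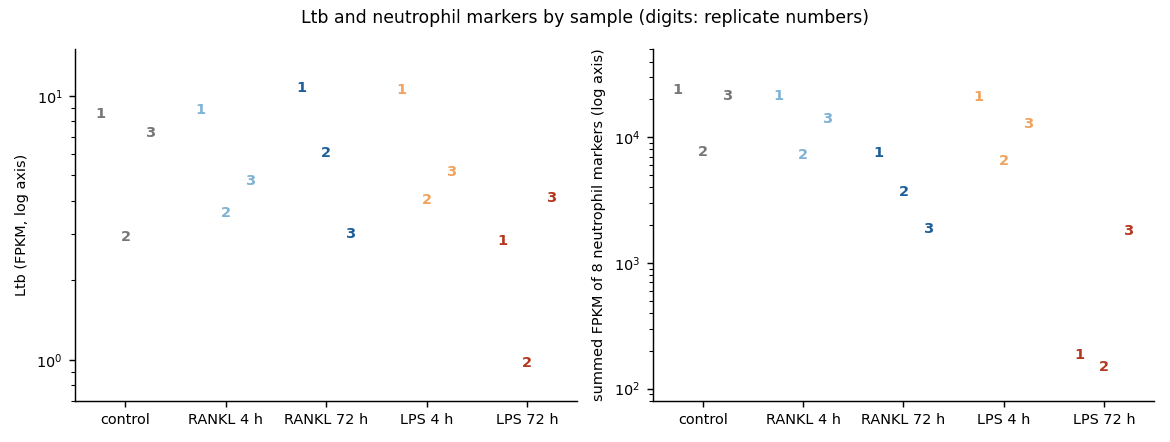
FPKM of *Ltb* (left, log axis) and summed FPKM of 8 neutrophil markers (right, log axis) in each sample, with replicate numbers as symbols. Replicate 3 is the highest in both panels in LPS 72 h, and replicate 1 in each of the other 4 groups.

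Genes whose log2 levels ran most like those of a ligand were sought among genes that averaged 1 FPKM or more, by Pearson's r over the 15 samples. These values are descriptions, since the samples share group means and replicate numbers. *Tnf* ran closest to *Nfkbib* (r = 0.988), which encodes an inhibitor of NF-κB, to *Rhbdf2* (0.985), which encodes iRhom2, the partner that brings the TNF-releasing protease ADAM17 to the cell surface, and to *Katna1* (0.982). *Tnfsf15* ran closest to *Nfkb1* (0.986), *Crlf3* (0.983) and *Icam1* (0.981), and *Tnfsf9* to *Sdc4* (0.979), *Ebi3* (0.978) and *Tiparp* (0.971). *Tnfsf10* had among its closest *Eif2ak2* (0.980), an interferon-induced kinase gene, beside *Papd7* (0.980) and *Rbm43* (0.976). *Lta* was closest to *Phlda1* (0.957), *Serpinb2* (0.948) and *Srgn* (0.942), and *Tnfsf12* to *Fes* (0.968), *Arhgef18* (0.962) and *Lrrc14b* (0.958). *Ltb* was closest to *Il18rap* (0.904), *Ly6c1* (0.891) and *Ly6g* (0.837), of which *Ly6g* is a neutrophil marker. The closest genes of *Tnfsf8* (*Camkk2*, 0.878), *Tnfsf13b* (*Fam13b*, 0.878) and *Tnfsf14* (*Dgat1*, 0.814) were less alike.

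Receptor genes of these ligands were called in both directions. Of 15 receptor genes 14 were tested, and 3 were higher and 2 lower in RANKL 72 h than in control, 4 and 4 in LPS 4 h, and 4 and 1 in LPS 72 h. Their median log2 fold changes were 0.18, -0.23 and 0.35, beside 0.16, -0.52 and 0.08 over all genes tested. Over all genes 16.6% were higher and 7.54% lower in RANKL 72 h, 8.43% and 39.7% in LPS 4 h, and 13% and 14.4% in LPS 72 h, and the RANKL 72 h counts of receptors were near these shares. *Tnfrsf1b*, encoding TNF receptor 2, rose from 82.9 ± 7.33 FPKM in control to 673 ± 86.0 in LPS 4 h (log2 fold change 3.02, limma adjusted p = 3.16e-08) and stood at 327 ± 72.7 in LPS 72 h (1.96, adjusted p = 9.46e-06). *Tnfrsf1a*, encoding TNF receptor 1, was not called in any of the 3 comparisons, at log2 fold changes of -0.55, -0.23 and -0.19 in RANKL 72 h, LPS 4 h and LPS 72 h. *Ltbr*, encoding the receptor of lymphotoxin β and LIGHT, was lower in RANKL 72 h (-0.68) and LPS 4 h (-0.99).

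*Tnfrsf9*, encoding 4-1BB, the receptor of the *Tnfsf9* product, rose in RANKL 72 h from 2.60, 1.06 and 0.788 FPKM to 7.01, 4.09 and 9.30 FPKM (log2 fold change 2.22, limma adjusted p = 0.00882) and was also higher in LPS 72 h (1.70). *Tnfrsf8*, encoding CD30, rose in LPS 4 h (1.99) and LPS 72 h (1.22) but stayed at or below 1.11 FPKM. *Tnfrsf14*, encoding HVEM, was higher in LPS 4 h (0.76), and *Tnfrsf13b*, encoding the BAFF receptor TACI, was lower there (-0.94). *Tnfrsf25*, encoding DR3, the receptor of the *Tnfsf15* product, stood at 0.0550 to 0.422 FPKM over all samples and was not called. *Tnfrsf12a*, encoding the TWEAK receptor Fn14, and *Tnfrsf10b*, encoding the mouse TRAIL receptor, were not called in these comparisons. *Tnfrsf23*, a decoy receptor gene, was lower in LPS 4 h (-0.63) and higher in LPS 72 h (1.73) and RANKL 72 h (0.78), and the decoy receptor gene *Tnfrsf22* was lower in LPS 4 h (-1.12).

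*Tnfrsf13c*, encoding the BAFF receptor of B cells, was lower in RANKL 72 h (-2.48) and LPS 72 h (-3.04), as were 6 and 7 of 8 B cell markers. The part of B cells in this was not tested. *Tnfrsf11b*, encoding osteoprotegerin, a decoy of RANKL and TRAIL, was higher in LPS 4 h (0.92) and in RANKL 72 h (1.93, limma adjusted p = 5.89e-04). In RANKL 72 h it stood at 3.28, 2.75 and 1.69 FPKM, and the summed stromal markers at 1824, 819 and 389 FPKM in the same replicates. In LPS 4 h the stromal marker sums of 289, 182 and 148 FPKM lay close to the 309, 181 and 140 of control. The part of stromal cells in the RANKL 72 h rise was not tested.

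**Figure D5:**
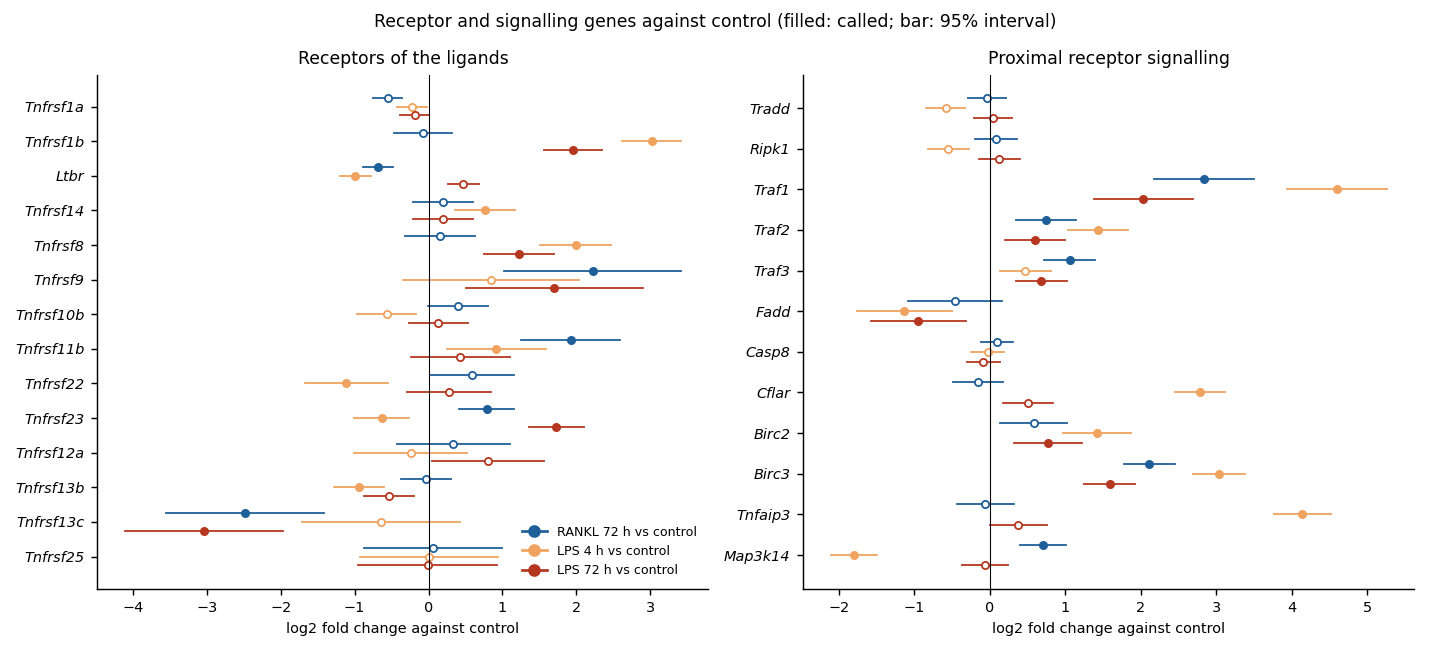
Log2 fold change against control (horizontal axis, with 95% intervals from limma) of the 14 tested receptor genes (left) and of 12 genes of proximal receptor signalling (right) in RANKL 72 h, LPS 4 h and LPS 72 h, with filled points for called genes. *Tnfrsf1b* reaches 3.02 and *Traf1* 4.60 in LPS 4 h, and *Tnfrsf9* 2.22 in RANKL 72 h.

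The products of a further group of genes act on TNF after transcription. The available genes ended alphabetically within those starting with T, so genes with later symbols are not in this group. Of 10 genes for the release of TNF and control of its mRNA, 4 were higher and 0 lower in RANKL 72 h, 5 and 1 in LPS 4 h, and 2 and 0 in LPS 72 h, with median log2 fold changes of 0.29, 0.49 and 0.10. Over all genes tested the shares called were 16.6% higher and 7.54% lower in RANKL 72 h, 8.43% and 39.7% in LPS 4 h, and 13% and 14.4% in LPS 72 h, so that the LPS 72 h count was near that of all genes. *Rhbdf2* rose from 23.5 ± 1.58 to 99.7 ± 3.39 FPKM in LPS 4 h (2.08, limma adjusted p = 1.94e-09). *Adam17*, encoding the protease that cleaves TNF from the membrane, was higher in LPS 4 h (0.64) and RANKL 72 h (0.95), and *Furin*, encoding a protease that processes ADAM17 and TWEAK, in all 3 comparisons (1.77, 0.87 and 0.64 in LPS 4 h, RANKL 72 h and LPS 72 h). *Rhbdf1* was higher in RANKL 72 h (1.05), *Rc3h1*, encoding the mRNA decay factor Roquin-1, was higher in LPS 4 h (0.68), and *Tia1*, encoding a translational silencer of *Tnf* mRNA, was lower there (-1.20). *Timp3*, encoding the inhibitor of ADAM17, was called higher in RANKL 72 h (1.85) and LPS 4 h (1.74), but its RANKL 72 h values of 76.3, 18.9 and 12.9 FPKM varied widely, as did the summed stromal markers.

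Of 12 genes of proximal signalling, 5 were higher and 0 lower in RANKL 72 h, 6 and 2 in LPS 4 h, and 5 and 1 in LPS 72 h, with median log2 fold changes of 0.34, 0.94 and 0.44. The shares of all genes called higher and lower were 16.6% and 7.54%, 8.43% and 39.7%, and 13% and 14.4% in the same order. *Traf1*, an adaptor gene, was higher in all 3 (2.84, 4.60 and 2.03 in that order), and so were *Birc3*, encoding the ubiquitin ligase cIAP2 (2.11, 3.04 and 1.58), and *Traf2* (0.74, 1.43 and 0.60). *Tnfaip3*, encoding the NF-κB inhibitor A20, rose in LPS 4 h from 18.9 ± 1.40 to 335 ± 30.8 FPKM (4.14, limma adjusted p = 1.49e-09), and *Cflar*, encoding the caspase-8 inhibitor cFLIP, rose there as well (2.78). *Map3k14*, encoding the kinase NIK of the alternative NF-κB pathway, rose in RANKL 72 h (0.70) but fell in LPS 4 h (-1.80). *Traf3*, encoding an adaptor that restrains NIK, was higher in RANKL 72 h (1.06) and LPS 72 h (0.68), *Birc2* was higher in LPS 4 h (1.42) and LPS 72 h (0.77), and the death adaptor gene *Fadd* was lower in both (-1.13 and -0.95).

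Of 8 other ligand genes of the superfamily 5 were tested. *Tnfsf4*, encoding the OX40 ligand, rose in LPS 4 h from 0.550, 0.612 and 0.155 FPKM to 13.2, 13.5 and 8.17 FPKM (log2 fold change 4.54, limma adjusted p = 3.09e-07). *Cd70*, between *Tnfsf9* and *Tnfsf14*, was higher there as well, at 1.45, 0.332 and 0.336 FPKM against 0.111, 0.0557 and 0 (2.16, limma adjusted p = 0.00191). *Tnfsf13*, encoding APRIL, was lower in LPS 72 h (-0.98), and none of the 5 was called in RANKL 72 h. *Tnfsf11*, encoding RANKL, was not called in RANKL 72 h, LPS 4 h or LPS 72 h (-0.22, 1.13 and 0.01). The single-gene exact permutation test of 3 samples against 3 cannot give a two-sided p below 0.1, the value it gave for every pair of groups that did not overlap.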

How the data were processed

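The data were RNA-seq of 15 mouse BMDM samples in 5 groups of 3, grouped by the labels. FPKM values per gene were made by the authors with StringTie and deposited in a single table, on GRCm38.p4 (mm10) per the submitters' processing notes. Aligner settings and the use of strand are not given in the sources used here. The table held 20089 complete gene rows and 1 incomplete row, which was left out, and ended alphabetically within genes starting with T. The low values were whole multiples of what 1 fragment is worth for 14485 of 14485 genes above 0 in at least 3 samples (100%, tolerance 0.001 fragments). The smallest fitting numbers were taken, so for genes above 0 in few samples a match could arise by chance. The recovered fragments came to 18306184 to 20330207 per sample, with a median of 19351141. No pair of replicates agreed within sampling noise, so all were kept.

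Log2(FPKM + 0.1) was fitted with limma 3.58.1 (lmFit and eBayes with trend, R 4.3.3) in 1 fit of 5 groups to the 11743 genes that averaged 0.1 FPKM or more, and 8 comparisons were drawn from it. P-values were adjusted by Benjamini-Hochberg over all genes tested. Intervals are 95% intervals of that fit. For single genes, two-sided exact permutation tests were added. The steps were tested on simulated data with known changes. Python 3.11.15, numpy 2.4.6, pandas 2.3.3 and matplotlib 3.10.9 were used for tables and plots.

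The ligands and all gene lists were chosen with earlier results of these data known. Named genes were all 10 ligands, the called genes of the ligand, receptor, release and signalling lists (at most the 6 with the largest absolute log2 fold change per list and comparison), the defining receptor of each ligand, and the 3 genes most like each ligand. *Tnfrsf14*, *Tnfrsf23* and *Tnfsf11* were also named where that limit did not reach them.

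The labels do not say whether same-numbered replicates share a mouse. Over 9486 genes the deviations of same-numbered samples from their group means correlated above 0.1 in every pair for RANKL 4 h against control (0.707 to 0.842), LPS 4 h against control (0.440 to 0.624), RANKL 72 h against control (0.136 to 0.318), RANKL 4 h against LPS 4 h (0.555 to 0.692) and RANKL 72 h against RANKL 4 h (0.162 to 0.251). The main fit did not use the replicate number, so its errors, p-values and calls are unpaired in every comparison. In reading the fit with the replicate block, these 5 comparisons were taken as paired and the remaining 3 were not. That fit used replicate effects common to all 5 groups, so it did not pair any comparison on its own. Alternatives were other pseudocounts (1 and 0.01), no filter or a mean of 1 FPKM or above, scaling to equal sums, median centring, the replicate block, no trend, fits of 2 groups only, voom on recovered fragments, unadjusted p-values, and leaving out each replicate.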

Additional observations from a re-analysis of the deposited data

Results flagged for a closer look

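The response to each stimulus differed between 4 h and 72 h for several ligands, by the limma test of the later against the earlier time. Under RANKL the log2 difference was -1.80 for *Tnf* and -0.70 for *Tnfsf12*, both lower at 72 h. It was 1.43 for *Tnfsf9* and 1.42 for *Tnfsf15*, both higher at 72 h. Under LPS the difference was -6.66 for *Tnfsf15*, -5.11 for *Tnf*, -4.93 for *Tnfsf10*, -3.46 for *Tnfsf9* and -2.70 for *Tnfsf8*, all lower at 72 h. *Tnfsf15* therefore differed in opposite directions over time under the 2 stimuli, and so did *Tnfsf9*. No group is labelled as kept in M-CSF alone to 72 h, so the stimulus and the time in culture cannot be told apart here.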

How the results depend on the processing

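Of the 38 ligand differences called, 29 kept their call under every alternative, and none changed sign. Of 636 alternative values, 593 kept the call and 43 lost it. Of the 42 differences not called, 7 were unchanged in sign and call throughout, with 38 of 700 values newly called and 44 of opposite sign. RANKL 4 h against control gave 4 called ligands with unadjusted p, and 14 called genes over all (6 with no filter on low values, 24 with the replicate block, 3 with no trend, 0 in a fit of 2 groups only and 301 with unadjusted p). With no filter, 2 ligands were called in RANKL 72 h against control and 3 in RANKL 72 h against LPS 72 h. With a mean of 1 FPKM or above, where fewer ligands were tested, 4 were called in LPS 72 h against control and 2 in RANKL 72 h against LPS 72 h. With median centring, 3400 genes were called in LPS 4 h against control in place of 5650, and 3485 in RANKL 4 h against LPS 4 h in place of 5872, with shifts of the median gene of 0.57 and -0.57. The cause of these differences was not tested.

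Leaving out single replicates gave 2 to 4 called ligands in RANKL 72 h against control (2 without control replicate 1 or RANKL 72 h replicate 3), 3 to 6 in RANKL 72 h against LPS 72 h (3 without replicate 1 of either group), 6 to 7 in LPS 4 h and in LPS 72 h against control, 6 to 8 in RANKL 4 h against LPS 4 h, 3 to 4 between the RANKL times, 5 to 7 between the LPS times and 0 in RANKL 4 h against control.

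Calls near the threshold were lost under several settings. In RANKL 72 h against control, *Tnfsf10* was lost with no filter, with 2 groups only and with voom, and *Tnfsf14* with no filter. In LPS 72 h against control, *Tnfsf13b* was lost with a pseudocount of 1, no filter, equal sums, 2 groups only and voom. In RANKL 72 h against LPS 72 h, *Tnfsf13b* was lost with no filter, and *Tnfsf15* with either other pseudocount, no filter, median centring and 2 groups only.

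The signs that changed were of differences not called. With median centring, *Ltb*, *Tnfsf8* and *Tnfsf13b* stood at -0.18, -0.16 and -0.067 in RANKL 72 h against control, *Ltb* at -0.10 between the RANKL times, and *Tnfsf12* and *Tnfsf14* at -0.092 and -0.24 between the LPS times. With equal sums, *Tnfsf10* and *Tnfsf13b* stood at 0.035 and 0.073 between the RANKL times. Leaving out single replicates, RANKL 4 h against control ranged from -0.34 to 0.34 for *Lta*, -0.55 to 0.21 for *Ltb*, -0.10 to 0.49 for *Tnfsf13b* and -0.14 to 0.37 for *Tnfsf15*. RANKL 72 h against control ranged from -0.43 to 0.27 for *Lta*, -0.43 to 0.51 for *Ltb*, -0.39 to 0.40 for *Tnfsf8* and -0.20 to 0.37 for *Tnfsf13b*. *Ltb* ranged from -0.37 to 0.38 in LPS 4 h against control and from -0.53 to 0.22 in RANKL 4 h against LPS 4 h, where *Tnfsf14* ranged from -0.35 to 0.32. Between the RANKL times the ranges were -0.48 to 0.23 for *Lta*, -0.31 to 0.59 for *Ltb*, -0.46 to 0.35 for *Tnfsf10*, -0.39 to 0.25 for *Tnfsf13b* and -0.38 to 0.020 for *Tnfsf14*. *Lta* ranged from -0.32 to 0.10 between the LPS times.

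With the replicate block, in the comparisons taken as paired, *Tnfsf14* in LPS 4 h against control was called (adjusted p = 0.00958, limma). No other ligand call changed in those comparisons. Where replicates shared only a number, the block added *Ltb* in LPS 72 h against control (0.0259), *Ltb* and *Tnfsf14* in RANKL 72 h against LPS 72 h (0.0178 and 0.0365) and *Ltb* between the LPS times (0.0094). Same-number correlations there were -0.03 to 0.18, -0.23 to -0.02 and -0.15 to 0.07. Depth limited *Tnfsf8* in LPS 72 h (3 to 12 fragments) and *Lta* in control and both RANKL groups (3 to 19 fragments). To a lesser degree it limited *Tnfsf15* in control (21 to 54 fragments). The SE was largest for *Ltb* (0.59) and *Tnfsf10* (0.49).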
